A study of Homo sapiens with 3 samples.

Results

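Accessible chromatin was described at 8 genes of adhesion G protein-coupled receptors in hCMEC/D3 cells. This immortalized line derives from the endothelium of small human brain vessels. The members were taken by symbol from RefSeq's gene annotation of GRCh38.p14, in which all 8 were found among 20037 protein-coding genes. They were the latrophilin genes ADGRL1, ADGRL2, ADGRL3 and ADGRL4, and ADGRF5, ADGRG1, ADGRG6 and ADGRE5. A peak belonged to a member if it overlapped the gene or the 10 kb on either side by at least 1 bp, which gave 92 of the 106415 peaks of the list. The cells were grown to confluence on plates coated with rat tail collagen. The labels give no treatment, and the samples include no other cell type or genotype. The chromatin data were 1 ATAC-seq library, replicate 2 in the labels. In this assay the Tn5 transposase cuts and tags open DNA. The genes were chosen by symbol, with peak results of these data known, and the rule named the number, position, length and pileup of their peaks, so each of these is given as a description. With 1 library there was no replicate check and no test. The 2 RNA-seq libraries of the line were not used here, because their transcript identifiers are not paired with genes in the tables at hand.

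Adhesion G protein-coupled receptors join a long extracellular region, rich in adhesion domains, to a membrane-spanning receptor domain. Many cut themselves at a site next to the membrane, which leaves the outer part bound without a covalent link and a short tethered sequence that can activate the receptor when it is exposed. Latrophilins are best known from synapses, where they bind teneurins and FLRT proteins. ADGRL4, also called ELTD1, is known from endothelium and growing vessels, and ADGRF5, also called GPR116, from endothelium and the lung epithelium. ADGRG1 (GPR56) binds collagen III and is known from cortical development, ADGRG6 (GPR126) is needed for myelination by Schwann cells, and ADGRE5 (CD97) is a leukocyte receptor for CD55.

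The start regions of the members are shown first because the 5′ positions of the peaks turn on them. RefSeq promoter sequences, build GRCh38.p14, were found for 6 of the 8 members, with 17 annotated start sites, and none was given for ADGRL1 or ADGRE5. For the latrophilins the 250 bases before 4 starts are printed 5′ to 3′ on the strand of the gene. Capitals mark GGAA or its complement TTCC, the core bound by ETS factors, and TGACTCA or its complement TGAGTCA, the AP-1 motif.
ADGRL2 (chr1:81305882-81306131, plus strand): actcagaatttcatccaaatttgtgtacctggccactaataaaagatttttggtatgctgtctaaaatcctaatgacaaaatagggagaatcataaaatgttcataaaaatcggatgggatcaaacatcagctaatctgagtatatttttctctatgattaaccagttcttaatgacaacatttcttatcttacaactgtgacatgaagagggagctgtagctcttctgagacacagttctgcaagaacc
ADGRL2 (chr1:81800126-81800375, plus strand): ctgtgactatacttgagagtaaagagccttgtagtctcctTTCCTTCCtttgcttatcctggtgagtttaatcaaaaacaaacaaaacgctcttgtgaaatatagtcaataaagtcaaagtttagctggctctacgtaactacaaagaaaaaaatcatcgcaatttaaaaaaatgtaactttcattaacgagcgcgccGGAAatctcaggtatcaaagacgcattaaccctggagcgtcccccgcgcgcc
ADGRL3 (chr4:61200076-61200325, plus strand): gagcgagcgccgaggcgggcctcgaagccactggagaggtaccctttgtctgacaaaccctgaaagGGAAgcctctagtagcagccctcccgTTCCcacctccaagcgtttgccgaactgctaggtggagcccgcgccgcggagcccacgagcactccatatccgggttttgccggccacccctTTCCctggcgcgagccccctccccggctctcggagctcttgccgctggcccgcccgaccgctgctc
ADGRL4 (chr1:79006731-79006980, minus strand): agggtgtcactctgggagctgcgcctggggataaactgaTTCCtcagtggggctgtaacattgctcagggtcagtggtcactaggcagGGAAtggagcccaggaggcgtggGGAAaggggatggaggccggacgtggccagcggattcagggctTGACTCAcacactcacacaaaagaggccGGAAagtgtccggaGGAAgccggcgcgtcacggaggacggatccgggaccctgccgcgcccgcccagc
The second ADGRL2 sequence ends at the first of 6 starts that lay together in the widest peak of the member, and the others end at the outermost start of their gene.

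The starts of ADGRF5, ADGRG1 and ADGRG6 are printed in the same way, with the outer and then the inner start for the first pair of genes.
ADGRF5 (chr6:46954940-46955189, minus strand): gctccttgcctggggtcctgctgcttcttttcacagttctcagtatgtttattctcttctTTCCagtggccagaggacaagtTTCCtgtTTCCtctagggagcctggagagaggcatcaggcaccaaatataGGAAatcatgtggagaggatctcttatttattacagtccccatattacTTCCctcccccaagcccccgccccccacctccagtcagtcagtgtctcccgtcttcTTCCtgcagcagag
ADGRF5 (chr6:46921939-46922188, minus strand): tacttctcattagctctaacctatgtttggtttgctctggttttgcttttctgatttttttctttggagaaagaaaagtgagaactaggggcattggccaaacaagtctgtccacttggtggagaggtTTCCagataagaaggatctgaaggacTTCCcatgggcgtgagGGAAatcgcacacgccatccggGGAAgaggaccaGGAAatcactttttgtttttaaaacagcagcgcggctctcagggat
ADGRG1 (chr16:57619488-57619737, plus strand): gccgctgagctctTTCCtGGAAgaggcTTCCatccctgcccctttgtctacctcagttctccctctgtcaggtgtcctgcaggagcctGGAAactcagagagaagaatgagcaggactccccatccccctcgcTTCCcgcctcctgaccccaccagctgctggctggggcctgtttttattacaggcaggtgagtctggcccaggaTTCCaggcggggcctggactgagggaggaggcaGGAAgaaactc
ADGRG1 (chr16:57628380-57628629, plus strand): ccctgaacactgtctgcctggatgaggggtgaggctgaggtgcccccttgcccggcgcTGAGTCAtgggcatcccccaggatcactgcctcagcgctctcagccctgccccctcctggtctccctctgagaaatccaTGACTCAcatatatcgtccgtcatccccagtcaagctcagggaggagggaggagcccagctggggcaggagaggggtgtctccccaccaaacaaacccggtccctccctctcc
ADGRG6 (chr6:142301757-142302006, plus strand): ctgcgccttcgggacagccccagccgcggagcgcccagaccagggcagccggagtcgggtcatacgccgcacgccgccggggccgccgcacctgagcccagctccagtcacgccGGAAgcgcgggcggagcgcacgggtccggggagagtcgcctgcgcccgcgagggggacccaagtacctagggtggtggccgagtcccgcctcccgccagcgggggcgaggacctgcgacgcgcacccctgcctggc
In all, 11 of the 17 member starts lay in a peak, beside 49.6% of the 35116 annotated start sites of the promoter table. Those 11 starts were in only 6 peaks, because 6 of them shared 1 peak of ADGRL2. Of the 9 printed sequences, the ADGRL3 start, the outer ADGRG1 start and the outer ADGRF5 start were not in a peak. The ADGRF5 start missed its peak by 34 bp, and 217 of the 250 bases before it were in that peak.

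The ADGRG1 sequence whose start lay in a peak held the AP-1 motif 2 times and no ETS core. ADGRL4 held the AP-1 motif 1 time and the ETS core 5 times, and no other member sequence held the AP-1 motif. Over all 35116 sequences of 250 bases, searched on both strands, 4.20% held this AP-1 motif and 92.7% held the ETS core. The ETS core was in 15 of the 17 member sequences, a share that such a short motif reaches almost everywhere. CG dinucleotides numbered 34 at ADGRG6, 23 at the outer ADGRL3 start, 16 at ADGRL4, 4 at the outer ADGRG1 start and 1 at the outer ADGRL2 start. The median over all sequences was 11, with 21 where the start lay in a peak and 3 where it did not. The outer ADGRL3 start, not in a peak, was thus richer in CG than the median of sequences whose start was, and the outer ADGRL2 start, in a peak, was poorer. A match is a description of letters and not a binding site.

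The 8 members differed widely in the number of peaks. ADGRG6 had 24 peaks, ADGRL2 had 20, ADGRF5 had 18, ADGRG1 had 12, ADGRL1 had 9, ADGRE5 had 5, ADGRL4 had 4 and ADGRL3 had 0. Thus 7 of 8 members had a peak, beside 89.8% of all protein-coding genes. The median over members was 10.5 peaks, compared with 3 (quartiles 2 and 6) over all protein-coding genes, whose median length was 24.1 kb. Most of the member peaks were inside the genes, 76 of 92, with 7 at gene ends and 9 in the flanks. An end peak overlapped a window reaching 1 kb to each side of an end of the gene.

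**Figure D1:**
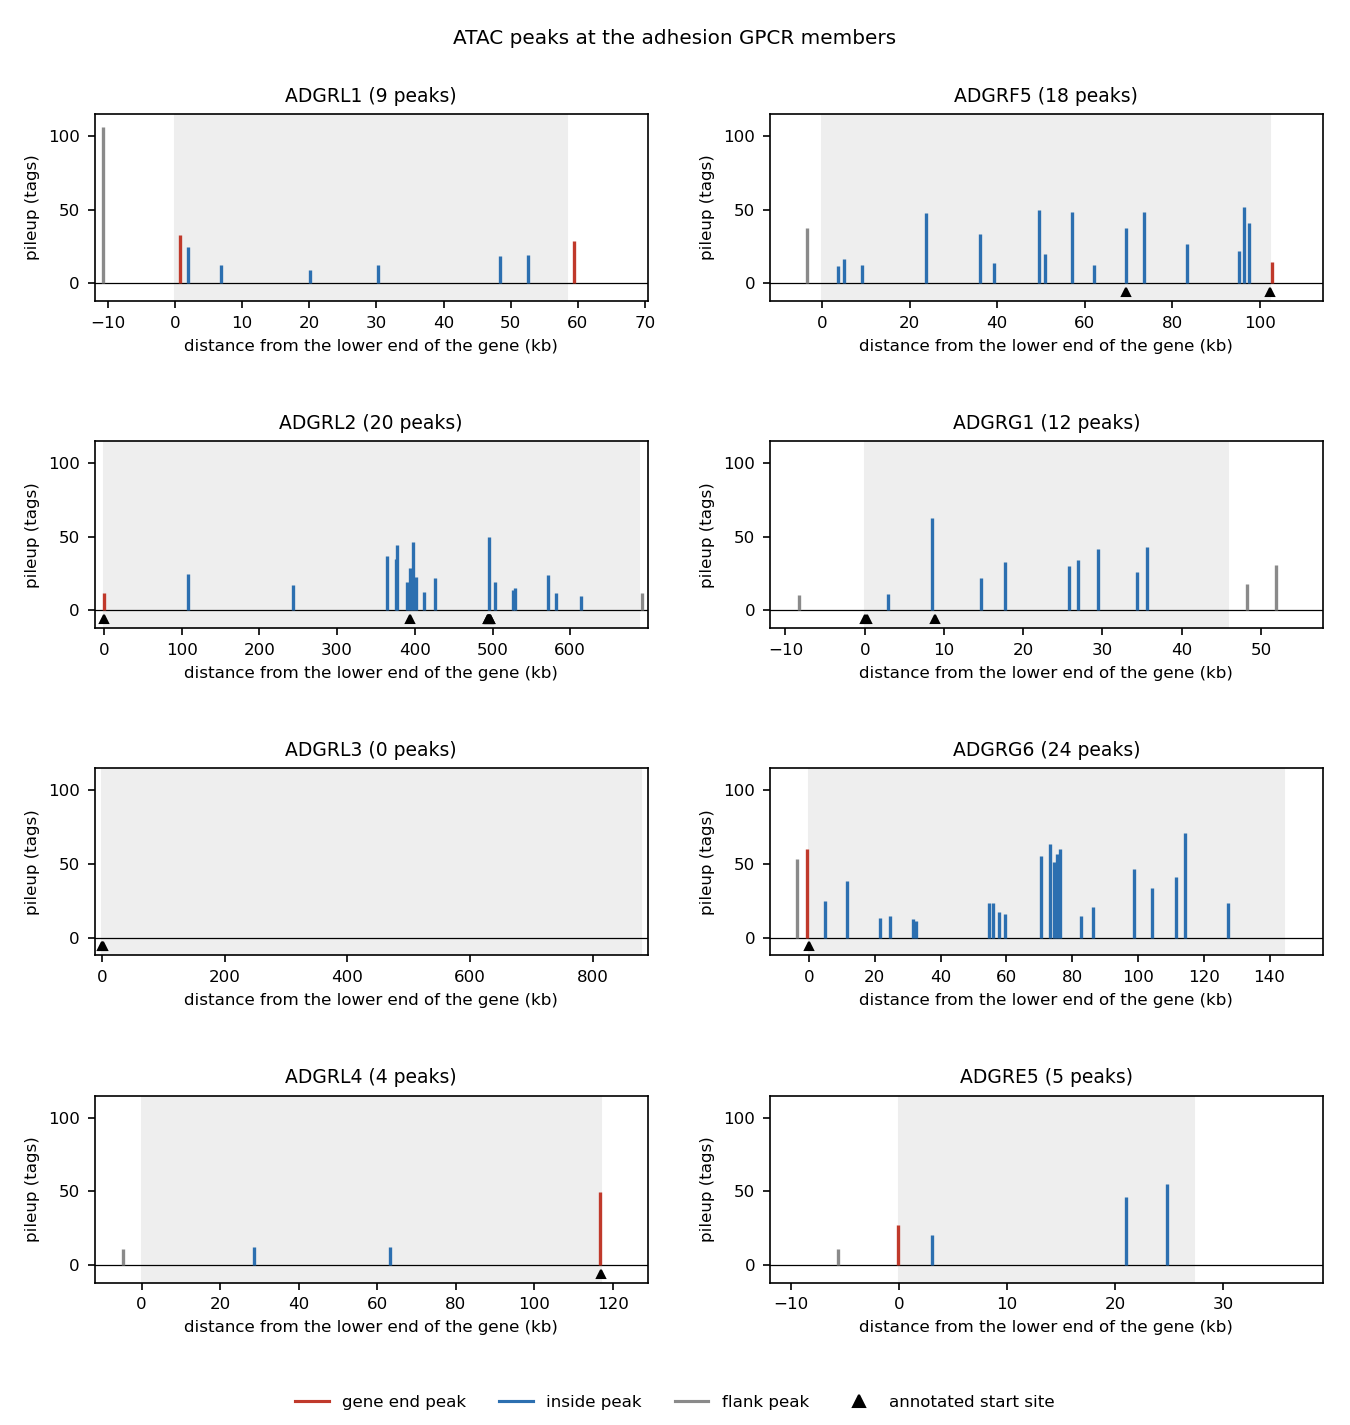
Position (x axis, kb from the lower-coordinate end of the gene) and pileup (y axis, tags) of each peak at the 8 members in the 1 ATAC library. Grey shading marks the gene, line colours the class of the peak and triangles the annotated starts; no start was given for ADGRL1 and ADGRE5. ADGRL3 has no peak, while ADGRG6 and ADGRL2 have 24 and 20.

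Gene length varied from 27.3 kb for ADGRE5 to 878 kb for ADGRL3, so peaks were also counted per 10 kb of gene. ADGRG1 had 1.96 peaks per 10 kb, ADGRG6 had 1.59, ADGRF5 had 1.56 and ADGRE5 had 1.47. Among the latrophilins, ADGRL1 had 1.20, ADGRL2 had 0.28, ADGRL4 had 0.26 and ADGRL3 had 0. With all peaks counted, every latrophilin gene was below every one of the other 4 members in density, with medians of 0.27 and 1.58 peaks per 10 kb. With only peaks of at least 4-fold counted, the groups overlapped: ADGRL1 had 0.68 per 10 kb, above ADGRG1 at 0.65 and ADGRG6 at 0.62, and the latrophilin median was 0.13. The median over all protein-coding genes was 0.68 per 10 kb, with quartiles of 0.23 and 1.35. By number of peaks the groups overlapped, with medians of 6.5 (0 to 20) for the latrophilins and 15 (5 to 24) for the others. This contrast is between 4 genes and 4 genes of 1 library and was not tested.

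Since longer genes hold fewer peaks per length, each member was set beside the other protein-coding genes within 1.5 times of its length. All 4 members that are not latrophilins were above the upper quartile of such genes. For ADGRG6, 23 peaks overlapped the gene, 1.59 per 10 kb compared with a median of 0.46 and an upper quartile of 0.76 over 2227 genes. ADGRF5 compared with 0.50 and 0.81 over 2840 genes, ADGRG1 with 0.60 and 0.96 over 3962 genes, and ADGRE5 with 0.74 and 1.15 over 4176 genes. ADGRL1, at 1.20, was also above the upper quartile of 0.91 of its 3715 genes. ADGRL2, at 0.28, lay between the median of 0.18 and the upper quartile of 0.38 of 311 genes. ADGRL4, at 0.256, was just under the lower quartile of 0.265 of 2620 genes, whose median was 0.49. By number, its 4 peaks equalled the lower quartile of 4 of those genes. ADGRL3, at 0, compared with a lower quartile of 0.028 and a median of 0.13 over 192 genes. Of these 192 genes, 21 (10.9%) had no peak in the gene or 10 kb either side. Beside genes of like length ADGRL2 was thus not low in peaks, and ADGRL4 was near the lower quartile.

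**Figure D2:**
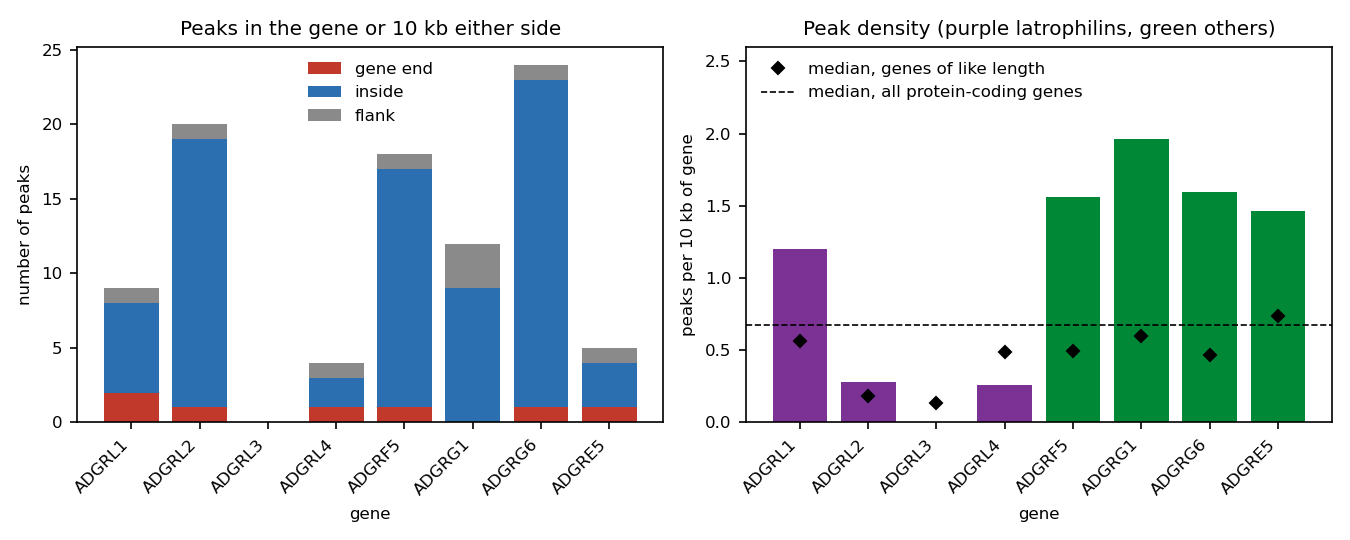
Left, number of peaks at each member (y axis), stacked by class; right, peaks per 10 kb of gene for the latrophilins (purple) and the other members (green), in 1 library. Diamonds are medians of protein-coding genes of like length and the dashed line, at 0.68, is the median of all protein-coding genes; ADGRF5, ADGRG1, ADGRG6 and ADGRE5 stand at 1.47 to 1.96.

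ADGRL3, the longest member and a receptor studied mostly in neurons, had no peak in its 878 kb or the 10 kb on either side. The nearest peaks lay 3256 kb below the gene, at 34.7 tags and 10.6-fold, and 3305 kb above it, at 46.3 tags and 9.70-fold. The gene was thus inside a stretch of 7.44 Mb without a peak (chr4:57944034-65383549), which held 3 protein-coding genes and ranked 8th in length among 106391 stretches between neighbouring peaks. The peak numbers in the list run without a gap, so no peak of the caller was missing there. Among the 315 protein-coding genes of at least 500 kb, 34 had no peak (10.8%), and 16 of the genes without a peak were longer than ADGRL3. The lowest pileup called anywhere was 8.0 tags, so an absent peak means only that nothing was called at this depth of 22188172 tags and with these settings. The caller ran with the mouse genome size, which gave a lowest background of 2.37 tags instead of 1.64. Peaks were not called again with the human size.

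ADGRL2, a latrophilin also found in endothelium, had an accessible inner start region. Its widest peak (chr1:81800301-81803804) was 3504 bp long, ranked 3rd in length in the whole list, and covered 6 of the 8 annotated starts of the gene. The pileup was 50.2 tags and the fold 2.68, over a local background of 18.1 tags. This peak was centred 496 kb from the outermost start and was classed as inside the gene. At the outermost start itself the peak (chr1:81306005-81306420) had 11.8 tags and a fold of 3.81. The inner start region therefore had a pileup 4.24 times that at the outer one. The remaining start lay 102 bp from a peak of 29.1 tags.

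The other ADGRL2 peaks lay along the 688 kb of the gene on both sides of its widest peak, which was centred at 496 kb. Before the widest peak 12 peaks overlapped the gene, across 426 kb, with pileups from 11.8 to 46.5 tags. After it 6 did, across 112 kb, with 10.1 to 24.3 tags. The longer part thus held more peaks, and these counts are not densities. The highest fold of any member peak, 11.3, was on chr1:81670273-81670699, with 37.2 tags. That peak sat at the floor of the caller's background, 2.37 tags, as did 12 of the 20 peaks of ADGRL2. The longest part of the gene without a peak was 135 kb.

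**Figure D3:**
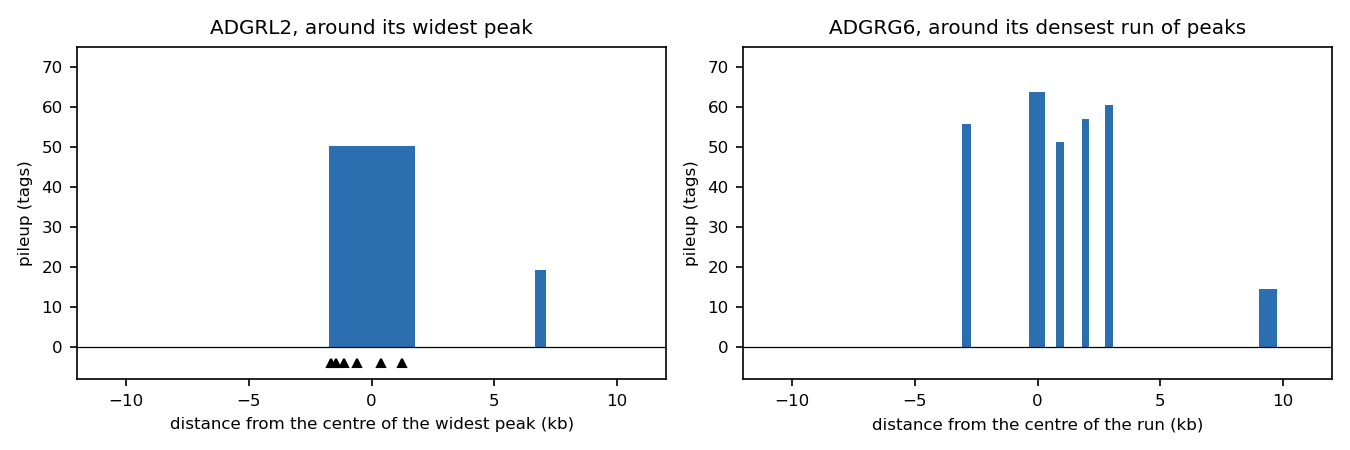
Peaks drawn to scale in width (x axis, kb) and pileup (y axis, tags) around the widest peak of ADGRL2 (left) and the densest run of peaks of ADGRG6 (right), in 1 library; triangles are annotated starts. The 3504 bp peak of ADGRL2 spans 6 starts, and the 5 peaks of the ADGRG6 run stand between 51.3 and 63.7 tags.

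ADGRL4, the latrophilin gene best known from endothelium, had its signal at its start. The peak there (chr1:79006103-79007048) was 946 bp long with 49.7 tags at 7.42-fold, and no other of the 7 end peaks of the members had a higher fold. The other 3 peaks had 11.1, 12.02 and 12.3 tags and all sat at the background floor. Of the 4 peaks, only the start peak exceeded the list's median pileup of 21.6 tags.

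ADGRL1, the latrophilin first described as a receptor for the spider toxin, had the only pair of end peaks. They had 32.9 tags with a fold of 6.65 (chr19:14148123-14148692) and 28.6 tags with a fold of 5.36 (chr19:14206706-14207684), at the lower and the higher end of the gene. Its 6 inside peaks ranged from 8.93 to 24.99 tags. The highest pileup of any member, 106 tags, was a flank peak of ADGRL1 (chr19:14136339-14137756) of 1418 bp. It lay 9.99 kb from the gene, just within the 10 kb, and was lost when 200 bp had to overlap, which left 8 peaks. It overlapped ASF1B and ADGRL1-AS1 at their ends and was thus nearer to them than to ADGRL1. The lower end peak of ADGRL1 and its inside peaks of 24.99, 12.55 and 8.93 tags also overlapped ADGRL1-AS1. Just outside the 10 kb, a peak of 69.2 tags lay 10.2 kb from ADGRE5, one of 19.1 tags 10.5 kb from ADGRG1 and one of 23.8 tags 11.1 kb from ADGRL1.

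ADGRG6, the receptor of Schwann cell myelination, had the most peaks and the inside peak of highest pileup among the members, while ADGRL2 and ADGRF5 held inside peaks of higher fold. Its start peak (chr6:142300700-142302272) was 1573 bp long, with 60.2 tags and a fold of 3.32, and covered the 1 annotated start. The highest inside peak (chr6:142416149-142416673), lay 114 kb into the gene and reached 70.8 tags at 7.21-fold. The highest fold, 8.55, was at chr6:142400423-142400957 with 46.3 tags. Between these and the start, 5 peaks crowded into 6.16 kb, from chr6:142372338 to 142378493.

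The peaks of that ADGRG6 run were high in pileup and low in fold. Pileups were 55.6, 63.7, 51.3, 57.0 and 60.4 tags, all above the upper quartile of the list of 36.0, while folds were 2.81 to 3.96, under the list's median of 4.49. The local background there was 14.5 to 17.6 tags, compared with a median of 3.32 over all peaks. The caller takes the background from the same library within 10000 bp, so neighbouring peaks enter it, and the fold in such a run is set against its own surroundings. Of the 24 peaks of ADGRG6, 9 had a fold of at least 4, as had 62.5% of the whole list, and 16 had a pileup over the list's median.

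ADGRF5, the receptor known from endothelium and lung, had many strong inside peaks and a weak one at its outer start. The peak at that start (chr6:46954973-46955448) had only 14.2 tags, 4.41-fold over its background. The highest pileup, 52.0 tags, was at chr6:46948576-46949368, 5.57 to 6.36 kb inside the gene from that start. The highest fold, 10.3, was at chr6:46876046-46876672 with 47.7 tags. The widest peak, of 1219 bp and 48.7 tags, was at chr6:46925529-46926747. A peak of 37.8 tags covered the inner start, a pileup 2.66 times that at the outer start. This inner peak also lay at an end of the noncoding gene LOC105375080, to which it may equally belong. The fold of the inner peak was lower, 3.45 over a local background of 10.2 tags, where the outer one had 2.44 tags of background. Of the 18 peaks 11 exceeded the list's median pileup, and 5 inside peaks lay at ends of noncoding genes that overlap ADGRF5, ADGRF5-AS1 among them.

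ADGRG1, the receptor for collagen III, had no peak at either end and a strong one at an inner start. Its highest peak (chr16:57627479-57628853), of 1375 bp, 62.8 tags and a fold of 4.78, covered the start whose sequence above holds 2 AP-1 motifs. The outer starts lay 2823 and 2515 bp from the nearest peak, which had 11.3 tags and the lowest fold among the member peaks, 2.35. The widest peak of the gene was 1452 bp with 34.6 tags, and the highest fold was 6.58 with 43.0 tags. The peak nearest to an end lay 1.92 kb beyond the higher one, with 17.8 tags. Of its 12 peaks none sat at the background floor. Of the 3 flank peaks, 2 lay within the neighbouring receptor gene ADGRG3.

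ADGRE5, the leukocyte receptor for CD55 and the shortest member, had an end peak (chr19:14380947-14381775) of 26.8 tags and a fold of 4.10. Its highest peak (chr19:14405905-14406590), of 55.2 tags and a fold of 4.97, lay inside the gene 2.13 kb from the other end. With windows of 2500 bp it counted as an end peak, and the highest end pileup then rose to 55.2 tags. The remaining 3 peaks had 11.0, 20.6 and 45.8 tags.

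By position, an end peak was found at 6 of the 8 members, beside 72.8% of all protein-coding genes, a share near the background. The exceptions were ADGRL3, with no peak at all, and ADGRG1. The highest end pileup per member was 60.2 tags at ADGRG6, 49.7 at ADGRL4, 32.9 at ADGRL1, 26.8 at ADGRE5, 14.2 at ADGRF5 and 11.8 at ADGRL2. The median of these was 29.8 tags, compared with 45.7 over all protein-coding genes that had one. Only ADGRG6 and ADGRL4 were above the latter. Where the strand was known, the end peaks of ADGRL2, ADGRL4, ADGRF5 and ADGRG6 were all at the start end and none at the other. Over the 15843 protein-coding genes with a known strand, 71.2% had a peak at the start end and 19.1% at the other.

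The inside peaks of the members were close to the list in length and somewhat higher in pileup. Their median length was 425.5 bp, compared with 415 bp for the 48493 peaks of the list inside protein-coding genes away from ends. Their median pileup was 23.9 tags compared with 20.3, and their median fold 4.01 compared with 4.39. Among the latrophilins the 26 inside peaks had a median of 19.1 tags and among the others the 50 had 31.5. The background differed in the same direction, with medians of 2.38 tags for latrophilin and 5.75 tags for other inside peaks. Of all 33 latrophilin peaks 17 (51.5%) sat at the background floor, compared with 6 of 59 (10.2%) for the others and 35.1% of the list. These pooled values weigh ADGRL2 most. It held 12 of the 17 floor peaks, among its 20 peaks, while ADGRL4 had 3 of 4 at the floor and ADGRL1 only 2 of 9. The pooled folds, which divide pileup by background, were ordered the other way. Their medians were 4.28 for latrophilin and 3.94 for other inside peaks, and 4.32 and 3.92 over all peaks. By gene the order was mixed. ADGRF5 had the highest median fold, 4.71. ADGRL2 (4.49) and ADGRL1 (4.38) were above ADGRE5 (4.10), ADGRG6 and ADGRG1. ADGRL4 (3.904) was under ADGRE5 and above ADGRG6 and ADGRG1.

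**Figure D4:**
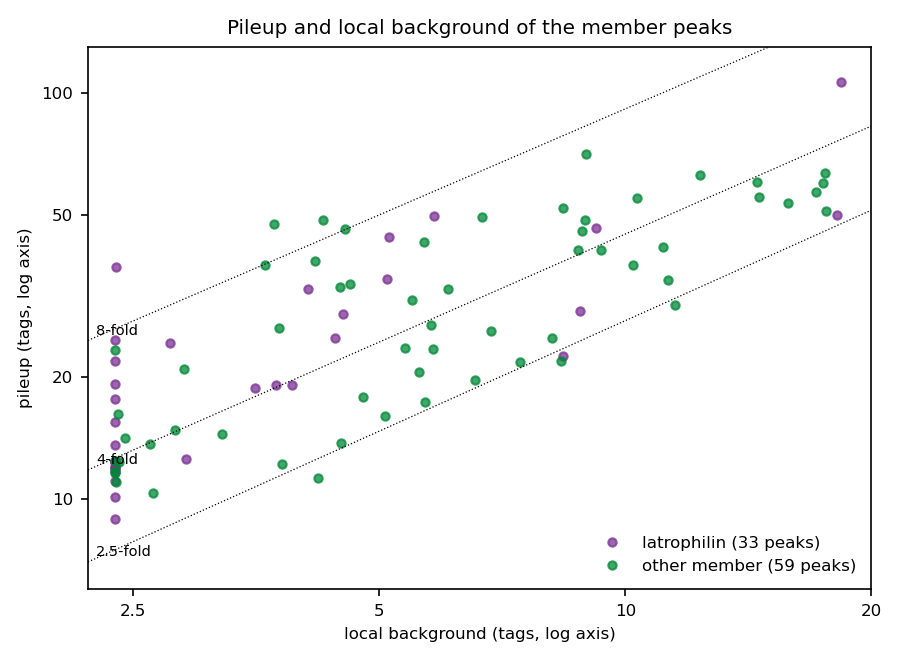
Pileup (y axis, tags, log axis) of the 92 member peaks against the local background derived from pileup and fold (x axis, tags, log axis) in 1 library; each point is 1 peak and dotted lines mark equal fold. Of the latrophilin peaks (purple), 17 of 33 sit at the floor of 2.37 tags, 12 of them from ADGRL2. Most other peaks (green) lie to the right of it.

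The surroundings of the genes, which the choice of members did not use, also differed. Within 1 Mb either side of the gene, outside the 10 kb, there were 188 peaks for ADGRG1, 150 for ADGRE5, 145 for ADGRL1, 81 for ADGRG6, 75 for ADGRL4, 36 for ADGRF5, 12 for ADGRL2 and 0 for ADGRL3. ADGRL1 and ADGRE5 lie within 1 Mb of each other on chromosome 19, so their surroundings overlap and their counts are not separate observations. The median over protein-coding genes was 110, with quartiles of 74 and 145. ADGRF5, ADGRL2 and ADGRL3 thus lay in surroundings under the lower quartile, and ADGRL4 and ADGRG6 between it and the median. Of the members in surroundings under the median, ADGRF5 and ADGRG6 had dense peaks within the gene.

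Other genes of the receptor family and genes of ligands and surface partners were read in the same way. Of 25 other adhesion receptor genes, 11 had an end peak (44.0%), compared with 72.8% of all protein-coding genes. Their median density was 0.24 peaks per 10 kb, compared with 0.68. The 25 include ADGRE4P and ADGRF2P, pseudogenes by their symbols, and ADGRF2P was among the 11. The highest end pileup among them was 83.3 tags at CELSR3, a receptor of planar cell polarity, and the lowest 9.26 tags at ADGRF4; ADGRA3 alone had no peak. Of 18 ligands and surface partners, such as the teneurin, FLRT and collagen genes, 13 had an end peak (72.2%), beside the 72.8% of all protein-coding genes. The highest was CD55, the ligand of ADGRE5, with 103 tags, and the lowest FLRT3, a latrophilin ligand, with 10.9 tags.

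The cell type label was checked by markers at gene ends. All 10 endothelial markers, among them CDH5, PECAM1 and TIE1, had an end peak, beside a share of 72.8% in the whole protein-coding set. Their median end pileup was 40.2 tags, below the 45.7 of that set, with 10.98 at ERG and 75.02 at EGFL7 as extremes. The medians of the other marker lists were lower, at 38.1 tags for mural cells, 35.02 for neurons, 26.18 for astrocytes and 23.14 for leukocytes. End peaks were also found for 4 of 5 mural cell, 4 of 5 leukocyte, 3 of 5 neuronal and 2 of 4 astrocyte markers, so an end peak alone did not set endothelial genes apart from those of other cells.

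**Figure D5:**
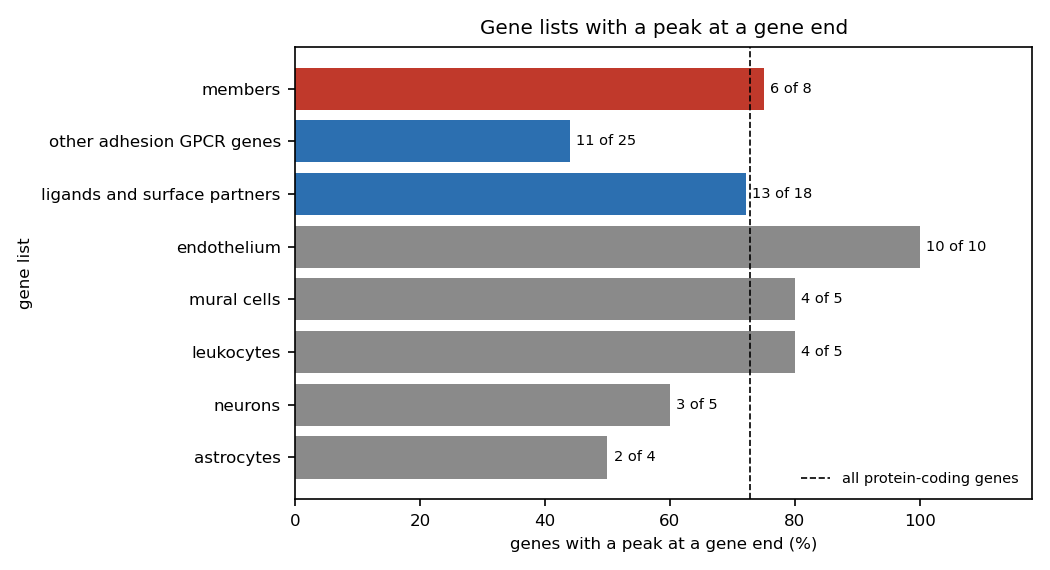
Share of genes with a peak at a gene end (x axis, %) for the members (red), related gene lists (blue) and cell type markers (grey), with the counts beside the bars, in 1 library. The dashed line is the share of all protein-coding genes, 72.8%; the members stand at 6 of 8 and the other adhesion receptor genes at 11 of 25.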

How the data were processed

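Per the labels' protocols, ATAC libraries of hCMEC/D3 were sequenced as paired ends. Per the file headers, the authors called broad peaks with MACS 2.2.7.1 on 1 library without a control, in single-end mode, moving each tag by -100 bp before extension to 200 bp. The q cutoffs were 0.05 (strong regions) and 0.1 (broad regions). Of 31532245 tags, 22188172 remained after 1 tag per position was kept. The genome size in the header, 1870000000 bp, is the mouse preset, so the background floor of 2.37 tags is higher than the 1.64 tags that the human preset of 2700000000 bp would give. The deposited columns are peak length, pileup signal, fold ratio and −log10 p-value and −log10 q-value; MACS in general reports these as averages over a broad region. The submitters' processing notes name Bowtie2, SAMtools 1.13, Picard and the builds GRCh38 and mm10. The peak header names no build. With peak coordinates as given, 49.6% of RefSeq start sites lay in a peak, compared with 2.94% to 3.53% when sites were moved by 5 to 50 kb, and GRCh38 was used.

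Peaks were placed with Python 3.11.15 and pandas 2.3.3, and the placement was tested on simulated intervals. Local background was computed as (pileup + 1)/fold − 1, and a peak within 0.02 tags of 2.37 counted as at the floor. Motifs were sought in the 250 bases before each start. The members and lists were chosen with earlier results of these data known. The rule for named peaks was the end peak of highest pileup, the peak of highest fold and the widest peak of each member; other peaks were named after their values were seen. Listed genes were named by the highest and lowest end pileup or by having no peak; 1 further list is not reported here. Stricter peak filters, windows, flanks, overlaps and the place of ADGRL4 were tried as alternatives.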

Additional observations from a re-analysis of the deposited data

How the results depend on the processing

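Of 141 alternative values, 104 stayed near the reported one and 37 moved; near means within 1.5-fold, or within the 95% Wilson interval for the share of protein-coding genes. Keeping only peaks whose −log10 q was 5 or more, the 92 member peaks became 60, the median count 3.5 for latrophilins and 9.5 for the others, the mean density over members 0.68 instead of 1.04 per 10 kb and the latrophilin median 0.14 (0.145). With a fold of at least 4 these were 46, 3.5, 6.5, 0.53 (0.525) and 0.13 (0.130), and the median density of the others was 0.77 (0.767). Fewer peaks under a stricter filter follow from its construction, and the latrophilin median stayed under the other in each of these settings, and with ADGRL4 counted among the others (0.28 and 1.56). The end peak share of protein-coding genes was 66.7% under the q limit, 56.0% under the fold limit, 71.5% when 200 bp had to overlap, 69.2% for windows of 500 bp and 79.2% for windows of 2500 bp, where 5, 4, 6, 6 and 7 members had an end peak. With the human genome size, chosen after seeing the data, the highest fold at ADGRL2 would be at most 14.5. How the peak counts would change under that size was not tested. No paired analysis was possible because the results come from no test and only 1 ATAC library was used.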

Other observations

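Related receptor genes on the same chromosomes as members, chosen after their values were seen, differed from the members in both directions. On chromosome 6, ADGRF5 was overlapped by 16 peaks (1.56 per 10 kb), while ADGRF1, ADGRF2P and ADGRF4 were each overlapped by 1 peak (0.22, 0.24 and 0.43 per 10 kb). ADGRB3, on the same chromosome, had 0.04 per 10 kb. On chromosome 16, ADGRG5 was overlapped by 5 peaks (1.04 per 10 kb), ADGRG1 by 9 (1.96) and ADGRG3 by 4 (1.68), and of these 3 genes ADGRG5 had peaks at its ends. On chromosome 19, ADGRE1, ADGRE2, ADGRE3 and ADGRE4P had 0 to 0.37 per 10 kb, under ADGRE5 at 1.47 and ADGRL1 at 1.20. On chromosome 1 the order was the other way, with ADGRB2 at 1.07 and CELSR2 at 0.76 beside 0.28 for ADGRL2 and 0.26 for ADGRL4. Longer genes hold fewer peaks per length, and lengths were not matched in these comparisons. ADGRB2 has 37224 bp and CELSR2 26213 bp, compared with 687801 bp for ADGRL2 and 116967 bp for ADGRL4. With the 10 kb on either side, ADGRL2 had 20 peaks, ADGRB2 and CELSR2 had 6 each and ADGRL4 had 4. On chromosome 4, neither ADGRA3 nor ADGRL3 had a peak.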
